A study of Homo sapiens with 16 samples.

Results

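The genes described here encode the CTCF-like factor BORIS (CTCFL), the insulator protein CTCF, the cohesin subunits SMC1A, SMC3, RAD21, STAG1 and STAG2, the cohesin loader NIPBL and the cohesin release factor WAPL. The 9 genes were chosen by name, and their peaks by position: every peak of the 6 deposited lists that touches a fixed hg19 window around a gene was taken. The windows were CTCFL on chromosome 20 (56.05 to 56.12 Mb), CTCF on chromosome 16 (67.58 to 67.69 Mb), SMC1A on chromosome X (53.39 to 53.46 Mb), SMC3 on chromosome 10 (112.31 to 112.38 Mb), RAD21 on chromosome 8 (117.84 to 117.91 Mb), STAG1 on chromosome 3 (136.03 to 136.49 Mb), STAG2 on chromosome X (123.08 to 123.25 Mb), NIPBL on chromosome 5 (36.86 to 37.08 Mb) and WAPL on chromosome 10 (88.18 to 88.30 Mb). The windows are not gene boundaries, and peaks near their ends may belong to neighbouring genes. They hold 86 of the 114213 peaks in the lists: 25 H3K27ac domains, 15 SMC1 peaks and 0 BORIS peaks of TC-71, and 25 H3K27ac domains, 21 SMC1 peaks and 0 BORIS peaks of TC-32.

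TC-71 and TC-32 are cell lines of Ewing sarcoma, a tumour usually driven by an EWSR1-ETS fusion. The labels give TC-71 as post-chemotherapy and TC-32 as from diagnosis, and name no treatment of the cultures. Each line is 1 model, so line and phase of therapy cannot be told apart. ChIP-seq with antibodies to BORIS, SMC1 and H3K27ac, and an input, was done on 2 samples per line and antibody, 16 samples in all. The labels point both samples of a line and antibody at 1 list. The values below therefore carry no spread between replicates, and TC-71 and TC-32 could not be set against each other in a test. Shares have exact (Clopper-Pearson) 95% intervals, which describe counting error alone. A peak list does not give the depth of its libraries. The TC-71 lists held 0.558 times the TC-32 number of SMC1 peaks and 0.724 times the number of H3K27ac domains. The cell type itself could not be checked against marker genes, because no gene annotation of the build was used.

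Cohesin is a ring of SMC1, SMC3 and RAD21, with STAG1 or STAG2 as a further subunit. NIPBL helps load the ring onto chromatin, where it extrudes loops, and WAPL releases it; CTCF bound to its motif stops the ring, so that SMC1 peaks commonly mark CTCF sites. BORIS shares the zinc-finger DNA-binding domain of CTCF and is normally restricted to the male germ line, where its promoter is freed of DNA methylation, but some tumours express it. STAG2 is a gene recurrently mutated in Ewing sarcoma. H3K27ac is a histone mark found at active promoters and enhancers; its presence at a gene is not a measure of RNA, which was not analysed here.

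The promoter sequences of the genes whose chromatin differed most, or that hold CTCF-type letters, are shown first. They come from the RefSeq promoter table for GRCh38.p14, which is not the build of the peaks, so no promoter was placed relative to a peak. The table names 8 of the 9 genes, with 13 starts among them; RAD21 is not in it. The first pair contrasts CTCFL, taken at the outermost of its 3 listed starts, with CTCF. Each line gives the 250 bases before the start, 5′ to 3′, on the minus strand for CTCFL and the plus strand for CTCF, with CpG dinucleotides in capitals.
CTCFL: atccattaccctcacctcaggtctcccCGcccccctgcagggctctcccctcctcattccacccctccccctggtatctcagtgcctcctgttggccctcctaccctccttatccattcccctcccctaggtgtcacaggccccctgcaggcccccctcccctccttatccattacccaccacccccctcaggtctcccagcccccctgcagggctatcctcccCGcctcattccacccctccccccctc
CTCF: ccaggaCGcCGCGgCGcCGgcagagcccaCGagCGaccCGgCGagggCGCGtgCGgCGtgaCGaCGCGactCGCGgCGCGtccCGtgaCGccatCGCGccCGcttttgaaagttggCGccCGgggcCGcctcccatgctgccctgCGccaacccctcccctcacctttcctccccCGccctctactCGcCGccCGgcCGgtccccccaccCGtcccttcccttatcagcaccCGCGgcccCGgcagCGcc
The CTCFL stretch holds 2 CpG and the CTCF stretch 39, beside a median of 11 over 35116 promoters. At the other CTCFL starts the count was 15 and 7.

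The next line shows STAG1, whose window held the highest-ranked SMC1 peak described here, with a CTCF-type core of 12 bases in capitals (minus strand, 250 bases before the start).
STAG1: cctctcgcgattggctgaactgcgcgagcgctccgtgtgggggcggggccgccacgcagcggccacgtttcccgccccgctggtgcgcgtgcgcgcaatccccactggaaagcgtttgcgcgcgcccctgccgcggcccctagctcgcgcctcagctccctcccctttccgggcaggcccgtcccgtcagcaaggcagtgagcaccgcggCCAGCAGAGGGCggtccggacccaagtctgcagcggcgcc
This core begins 40 bp before the start, and a second, CCACCAGATGGC, begins at base 19 after it. The search took any 12 bases on either strand that open with CCA, have AG at positions 6 and 7 and close with GGC from position 10; this pattern was added after the sequences were seen. It was found in 2 of the 13 starts, in STAG1 and at the outermost CTCFL start, and in 2.41% of all promoters, each read from 250 bases before to 50 after the start. Since the pattern was chosen with these sequences in view, the 2 of 13 cannot be set against the 2.41%. A second pattern, fixed with the design, asks for CC at the opening and C at position 4 in place of CCA. It overlaps the first, and has no match (0) in the 250 bases printed for STAG1. It was found in STAG1 alone among the 8 genes, at CCACCAGATGGC, and in 3.36% of all promoters. The 5 letters CCCTC, after which CTCF is named, were present on either strand in 11 of the 13 starts, of 7 of the 8 genes (all but SMC1A), against 71.2% of all promoters. A match is a string of letters and does not show binding.

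H3K27ac was listed at all 9 genes in TC-71 and at 8 in TC-32, CTCFL being the exception. In TC-71 the marked sequence summed to 54.6 kb of the 1360 kb of windows, against 48.7 kb in TC-32, and 31.6 kb were marked in both lines. The ratio of 1.12 runs opposite to the whole lists, in which TC-71 covered 42.7 Mb and TC-32 65.4 Mb, a ratio of 0.653. It rests on STAG1, with 23.7 kb in TC-71 and 11.9 kb in TC-32; the remaining 8 windows summed to 30.9 kb in TC-71 and 36.8 kb in TC-32. Keeping domains with a −log10 q of at least 5 turned the order round, to 37.3 kb in TC-71 and 40.04 kb in TC-32. For scale, 37% of 100-kb stretches of the genome, with or without a gene, held an H3K27ac domain in TC-71 and 46.7% in TC-32. At the shortest window length, 70 kb, the shares were 30.55% in TC-71 and 39.4% in TC-32. At the longest, 460 kb, they were 66.1% in TC-71 and 75.9% in TC-32.

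SMC1 peaks were listed at the same 7 genes in both lines, and at neither SMC1A nor WAPL. They numbered 15 in TC-71 and 21 in TC-32, or 1.10 and 1.54 per 100 kb of window. Of 100-kb stretches of the genome, 39.2% were occupied by SMC1 in TC-71, against 54.9% in TC-32. For stretches of 70 kb the shares were 30.6% in TC-71 and 44.8% in TC-32, and for 460 kb 76.2% and 87.0%. No gene had more SMC1 peaks in TC-71 than in TC-32, and RAD21, with 2 in each line, was the one gene with SMC1 at which the counts were equal. This order depends on the length of the lists: with lists of equal length 15 peaks in TC-71 stood against 12 in TC-32. There CTCFL (2 against 1), STAG1 (4 against 3), STAG2 (1 against 0) and NIPBL (2 against 1) had more in TC-71, and SMC3 (2 against 3) more in TC-32.

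**Figure D1:**
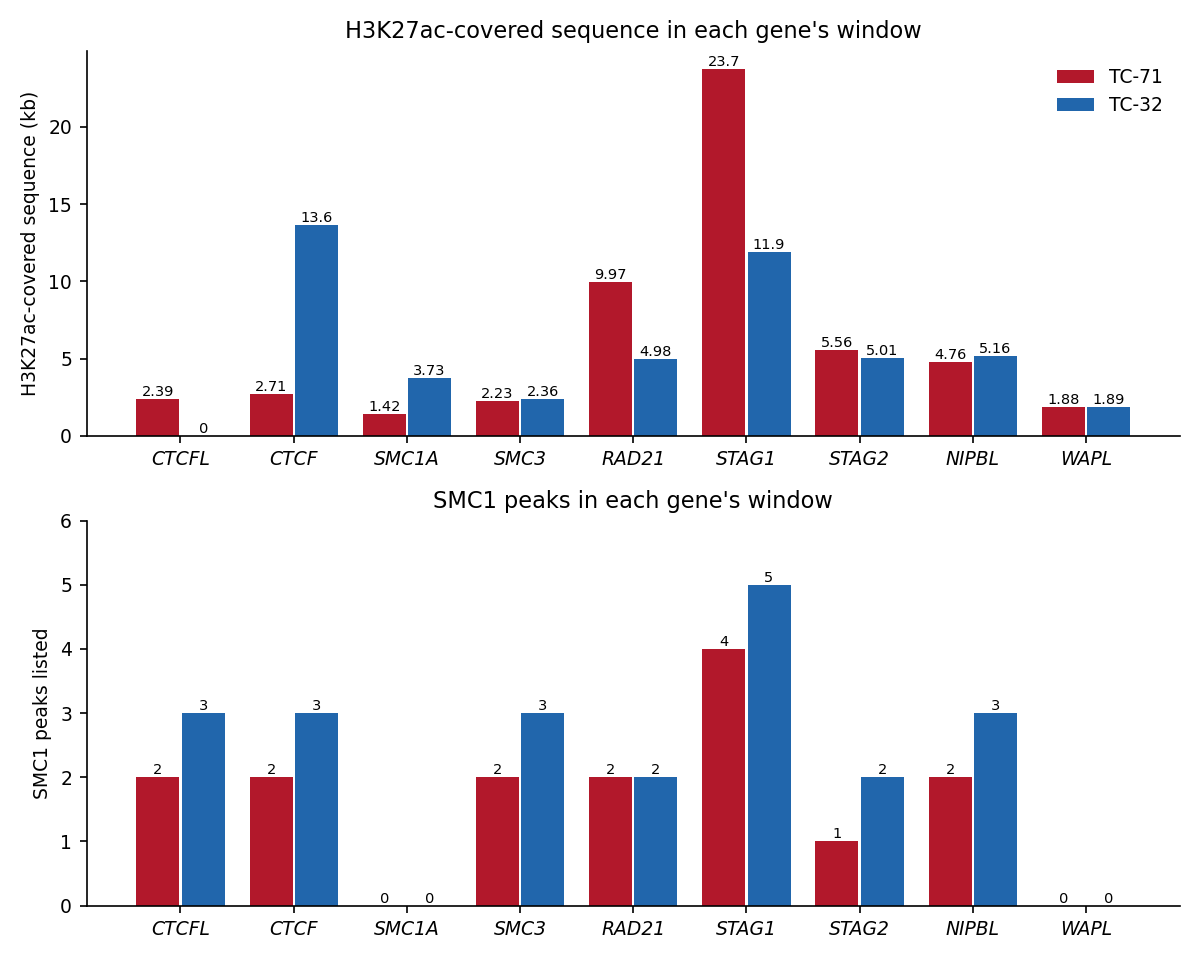
H3K27ac-covered sequence (upper panel, kb) and number of SMC1 peaks (lower panel) in the window of each gene, from 1 deposited list per line, without error bars because the replicates share a list. CTCFL is covered in TC-71 only (2.39 kb against 0 kb in TC-32), CTCF more in TC-32 (2.71 kb in TC-71 against 13.6 kb in TC-32), and SMC1A and WAPL have 0 SMC1 peaks in both lines.

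In each gene and line the domain of highest −log10 q is called the leading one here. In TC-71 it was the only domain in 6 of the 9 windows, and in TC-32 in 3 of 8. Leading domains ranked between the 80.2 and the 98.7 percentile of the TC-71 list, with a median of 97.3, and between the 90.01 and the 99.3 percentile of the TC-32 list, with a median of 98.0. The percentile is the share of a list's peaks with the same or a lower −log10 q. The lists differ in length, so folds and percentiles of TC-71 and TC-32 are given side by side below to place each peak in its own list, and no change between the lines is read from them. Since these were picked by −log10 q, their ranks are a description. Of all domains in the windows, 6 of 25 in TC-71 and 8 of 25 in TC-32 were in the highest 10% of their list, a share that is 10% of each whole list by construction. The other 16 domains of TC-71 had a median percentile of 17.9, and the other 17 of TC-32 one of 23.8. The 8 leading domains of TC-32 overlapped the leading domain of the same gene in TC-71. In the 8 genes whose strand the promoter table gives, the leading domain lay toward the 5′ side, centred between 4.33% and 29.4% of the way through the window in TC-71. In the 7 of these with a domain in TC-32 the range was 4.35% to 24.7%.

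**Figure D2:**
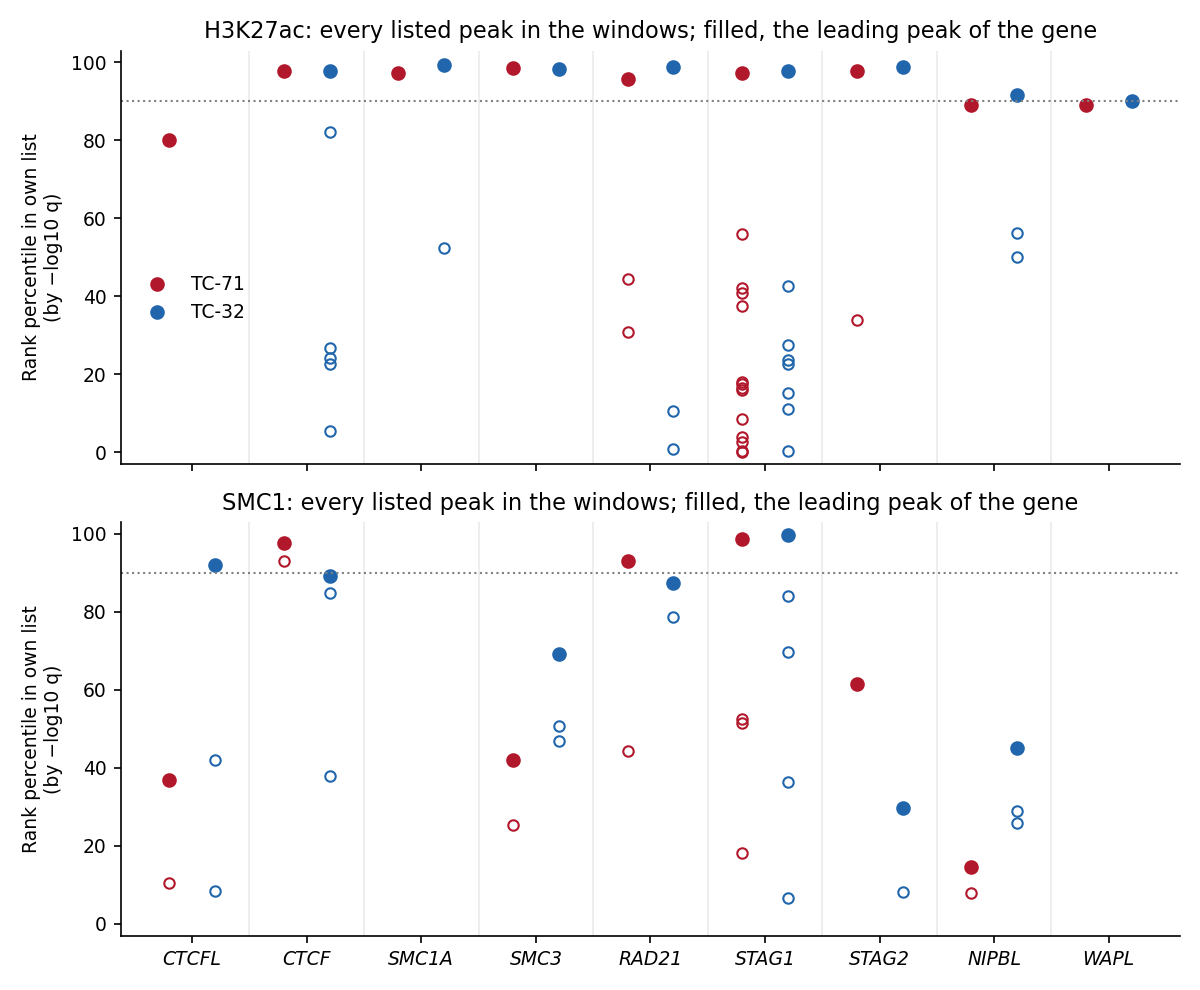
Rank percentile of every member peak within its own list, by gene and line, for H3K27ac (upper panel) and SMC1 (lower panel); filled circles mark the peak of highest −log10 q of a gene, and the dotted line the 90th percentile. Leading H3K27ac domains lie near the top, with CTCFL lowest at 80.2 in TC-71, while leading SMC1 peaks range from 14.7 to 98.8 in TC-71 and from 29.6 to 99.8 in TC-32.

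CTCFL, the gene of BORIS, carried an H3K27ac domain in TC-71, with none (0) listed in TC-32. The TC-71 domain spans 2389 bp (chromosome 20, 56098202 to 56100590), with an authors' fold enrichment over input of 5.70, a −log10 q of 16.8 and a rank of 5211 among 26334 domains. No TC-32 domain lay in the window, and the nearest was 48.5 kb away toward higher coordinates, with a percentile of 30.6. The nearest other TC-71 domain was 56.6 kb away on the same side. Of the 5211 TC-71 domains with a −log10 q at least as high, 1.57% had no TC-32 domain, and of those within 5 rank percentiles 2.96%. Counted by window, 13.6% of 70-kb stretches with a TC-71 domain had no TC-32 domain. The TC-32 list reaches down to a −log10 q of 2.01, so a weaker mark below that limit was not detectable there.

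SMC1 at CTCFL was listed in both lines. A peak at 56089386 to 56089625 in TC-71 had a fold of 4.12 and a percentile of 37.02, against a fold of 11.0 and a percentile of 92.01 for the TC-32 peak at 56089340 to 56089686. Its TC-71 edge lies 8.58 kb from the acetylated domain. A second shared site, 19.03 kb from the first, had a percentile of 10.5 in TC-71 and 42.02 in TC-32, and TC-32 had a further peak between them, at the 8.54 percentile. None (0) of these peaks lay in an H3K27ac domain of its line. In TC-71, where 534 BORIS peaks were listed, the nearest one to the CTCFL domain was 3274 kb away. Acetylation at CTCFL was thus listed in 1 line, and cohesin in both.

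**Figure D3:**
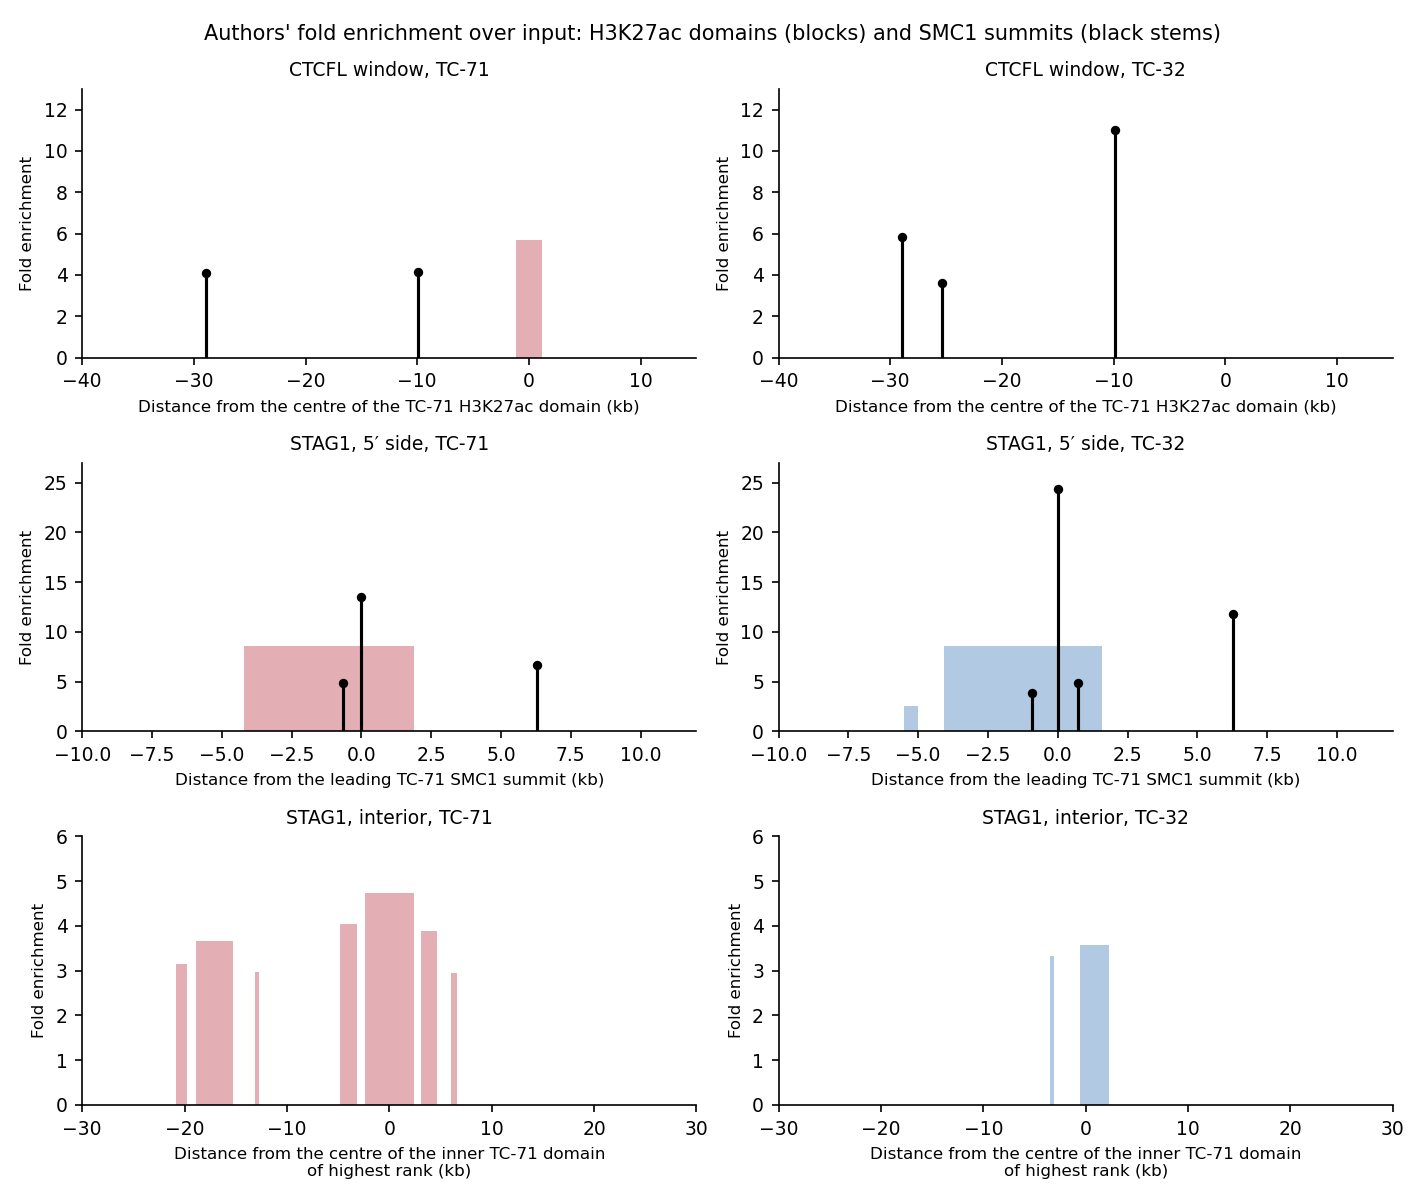
Authors' fold enrichment over input of H3K27ac domains (blocks, drawn to their width) and SMC1 summits (black stems) in 3 stretches, TC-71 left and TC-32 right, against distance in kb; folds belong to separate lists and can be read within a panel. The CTCFL domain is present in TC-71 alone, the leading SMC1 summit of STAG1 lies inside the acetylated domain in both lines, and the inner STAG1 stretch shown, chosen after its values were seen, has 7 of the 13 inner domains of TC-71 against 2 of the 7 of TC-32.

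CTCF, the paralog with the same type of zinc-finger domain, was acetylated in both lines and over more sequence in TC-32. The single TC-71 domain was 2709 bp wide (chromosome 16, 67595340 to 67598048; fold 7.93, percentile 97.8). It lay wholly inside a TC-32 domain of 5728 bp (67595311 to 67601038; fold 7.84, percentile 97.7). TC-32 had a further domain of 5127 bp (67602016 to 67607142; fold 5.64, percentile 82.1) 3968 bp from any TC-71 domain, and 4 weaker domains at percentiles of 5.39 to 26.9. The covered sequence was 2.71 kb in TC-71 and 13.6 kb in TC-32, or 2.71 kb in TC-71 and 10.9 kb in TC-32 with a −log10 q of 5 or more. At CTCF the lines differed mainly in the extension of the leading domain and its neighbour.

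SMC1 peaks stood at both ends of the CTCF window in both lines. The leading peak, at the higher coordinate (67678617 to 67678943 in TC-71, 67678524 to 67678935 in TC-32) had a fold of 13.5 in TC-71 and 15.9 in TC-32, and in TC-32 it touched a weak H3K27ac domain (percentile 22.7). The peak at the lower end (67580957 to 67581156 in TC-71) had a fold of 9.45 in TC-71, against 8.78 in TC-32. The percentiles were 97.6 and 93.1 in TC-71, against 89.2 and 84.8 in TC-32. Their summits were 97.7 kb apart and enclosed the 1 TC-71 domain and 4 of the 6 TC-32 domains. A weaker TC-32 peak (67596619 to 67596801, percentile 38.01) lay inside the leading TC-32 domain and was 15463 bp from any TC-71 SMC1 peak. By RefSeq gene order CTCF has RIPOR1 and CARMIL2 as coding neighbours, and the outer peaks were not assigned to a gene.

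The genes of the SMC pair in the cohesin ring had high-ranked domains in both lines. At SMC1A, whose protein is the target of the SMC1 antibody, the leading domain was 1419 bp in TC-71 (chromosome X, 53448674 to 53450092; fold 11.5, percentile 97.4). In TC-32 it was 2063 bp (53448187 to 53450249; fold 10.2, percentile 99.3). TC-32 had another domain of 1669 bp (53409761 to 53411429; percentile 52.5), 37245 bp from any TC-71 domain. At SMC3 the domain spanned 2226 bp in TC-71 (chromosome 10, 112326290 to 112328515; fold 9.52, percentile 98.7) and 2356 bp in TC-32 (112326142 to 112328497; fold 8.69, percentile 98.2), and no other domain was listed in its window.

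SMC1A had no SMC1 peak (0) in its window in either line, and SMC3 had several. The nearest SMC1 peak lay 3.06 kb outside the SMC1A window in TC-71 and 3.02 kb in TC-32, so widening the window by 10 kb brought in 1 peak in each line. At SMC3 the leading SMC1 peak (112360348 to 112360547 in TC-71, 112360328 to 112360634 in TC-32) had a fold of 5.61 and a percentile of 42.1 in TC-71, against a fold of 6.92 and a percentile of 69.1 in TC-32. A second shared peak had a percentile of 25.2 in TC-71 and 50.8 in TC-32. TC-32 alone had a further SMC3 peak, at the 46.9 percentile and 415 bp from the nearest TC-71 peak. No SMC3 peak (0) lay in an acetylated domain.

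RAD21, the gene of the kleisin that closes the ring, carried more acetylated sequence in TC-71. There 9.97 kb were covered, against 4.98 kb in TC-32, 2.001 times as much. The leading TC-71 domain of 6189 bp (chromosome 8, 117881467 to 117887655; fold 5.95, percentile 95.8) overlapped 2 TC-32 domains. These were the leading one of 2517 bp (117884929 to 117887445; fold 7.78, percentile 98.9) and a fragment of 236 bp at the 0.776 percentile. A second stretch was listed in both lines, 2953 bp wide in TC-71 and 2228 bp wide in TC-32 (percentiles 30.8 and 10.6), and another, of 827 bp, in TC-71 alone (percentile 44.4). At a −log10 q of 5 or more only the leading domains were left, at 6.19 kb in TC-71 and 2.52 kb in TC-32.

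The acetylated stretch of RAD21 lay between a pair of shared SMC1 peaks 36.3 kb apart. The peak at 117899822 to 117900031 in TC-71 had a fold of 7.25 and a percentile of 92.99, against 14.0 and 87.5 in TC-32. The other, at 117863496 to 117863740 in TC-71, had a fold of 5.60 and a percentile of 44.5, against 11.8 and 78.8 in TC-32. All 3 domains of each line fell between the summits, and no SMC1 peak (0) was inside a domain. Over the whole lists 8.84% of TC-71 domains and 19.1% of TC-32 domains held an SMC1 peak. A domain without one generally lies between neighbouring SMC1 peaks. How often such a pair is shared or this close was not computed, here or at CTCF.

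STAG1, in the longest window, had the most acetylated sequence of the 9 genes in TC-71, at 23.7 kb. In TC-32 its 11.9 kb came after the 13.6 kb of CTCF. Covered sequence made up 5.16% of the STAG1 window in TC-71, against 14.2% at RAD21. In TC-32 STAG1 had 2.59%, against 12.4% at CTCF. Its leading domain spanned 6092 bp in TC-71 (chromosome 3, 136467045 to 136473136; fold 8.54, percentile 97.3) and 5636 bp in TC-32 (136467175 to 136472810; fold 8.61, percentile 97.8). Inside it lay the SMC1 peak of highest −log10 q of all the windows, in each line. In TC-71 it was 414 bp wide (136470982 to 136471395), with a fold of 13.5 and rank 228 of 18264. In TC-32 it was 1012 bp wide (136470619 to 136471630), with a fold of 24.4 and rank 80 of 32720. The summits were 18 bp apart. Flanking peaks within the domain were listed once in TC-71 (percentile 18.2, 7 bp from the TC-32 leading peak) and on 2 sides in TC-32 (percentiles 6.69 and 36.4). A further shared peak lay 6.29 kb beyond the leading summit, outside the domain (percentile 51.6 in TC-71, 84.1 in TC-32), and another 361 kb inward (52.6 in TC-71, 69.6 in TC-32). The promoter printed above for STAG1 carries the CTCF-type letters; whether they lie under this peak was not tested.

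The interior of STAG1 was acetylated at more places in TC-71. Besides the leading domain, 13 domains were listed in TC-71 and 7 in TC-32, all at or below the 56.1 percentile in TC-71 and the 42.6 percentile in TC-32. A run of 4 TC-71 domains over 11.4 kb (136278217 to 136289582; folds 2.95 to 4.73) covered 8.53 kb, and TC-32 had 2 domains there, covering 3.32 kb. A second run of 3 over 8.09 kb (136262171 to 136270260; folds 2.96 to 3.66) had 0 TC-32 domains. No SMC1 peak (0) of either line lay in these runs, which were singled out after their values were seen. At a −log10 q of 5 or more, STAG1 kept 2 domains in each line, covering 10.9 kb in TC-71, against 8.52 kb in TC-32. The rest of the difference at STAG1 thus lay in weak domains.

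**Figure D4:**
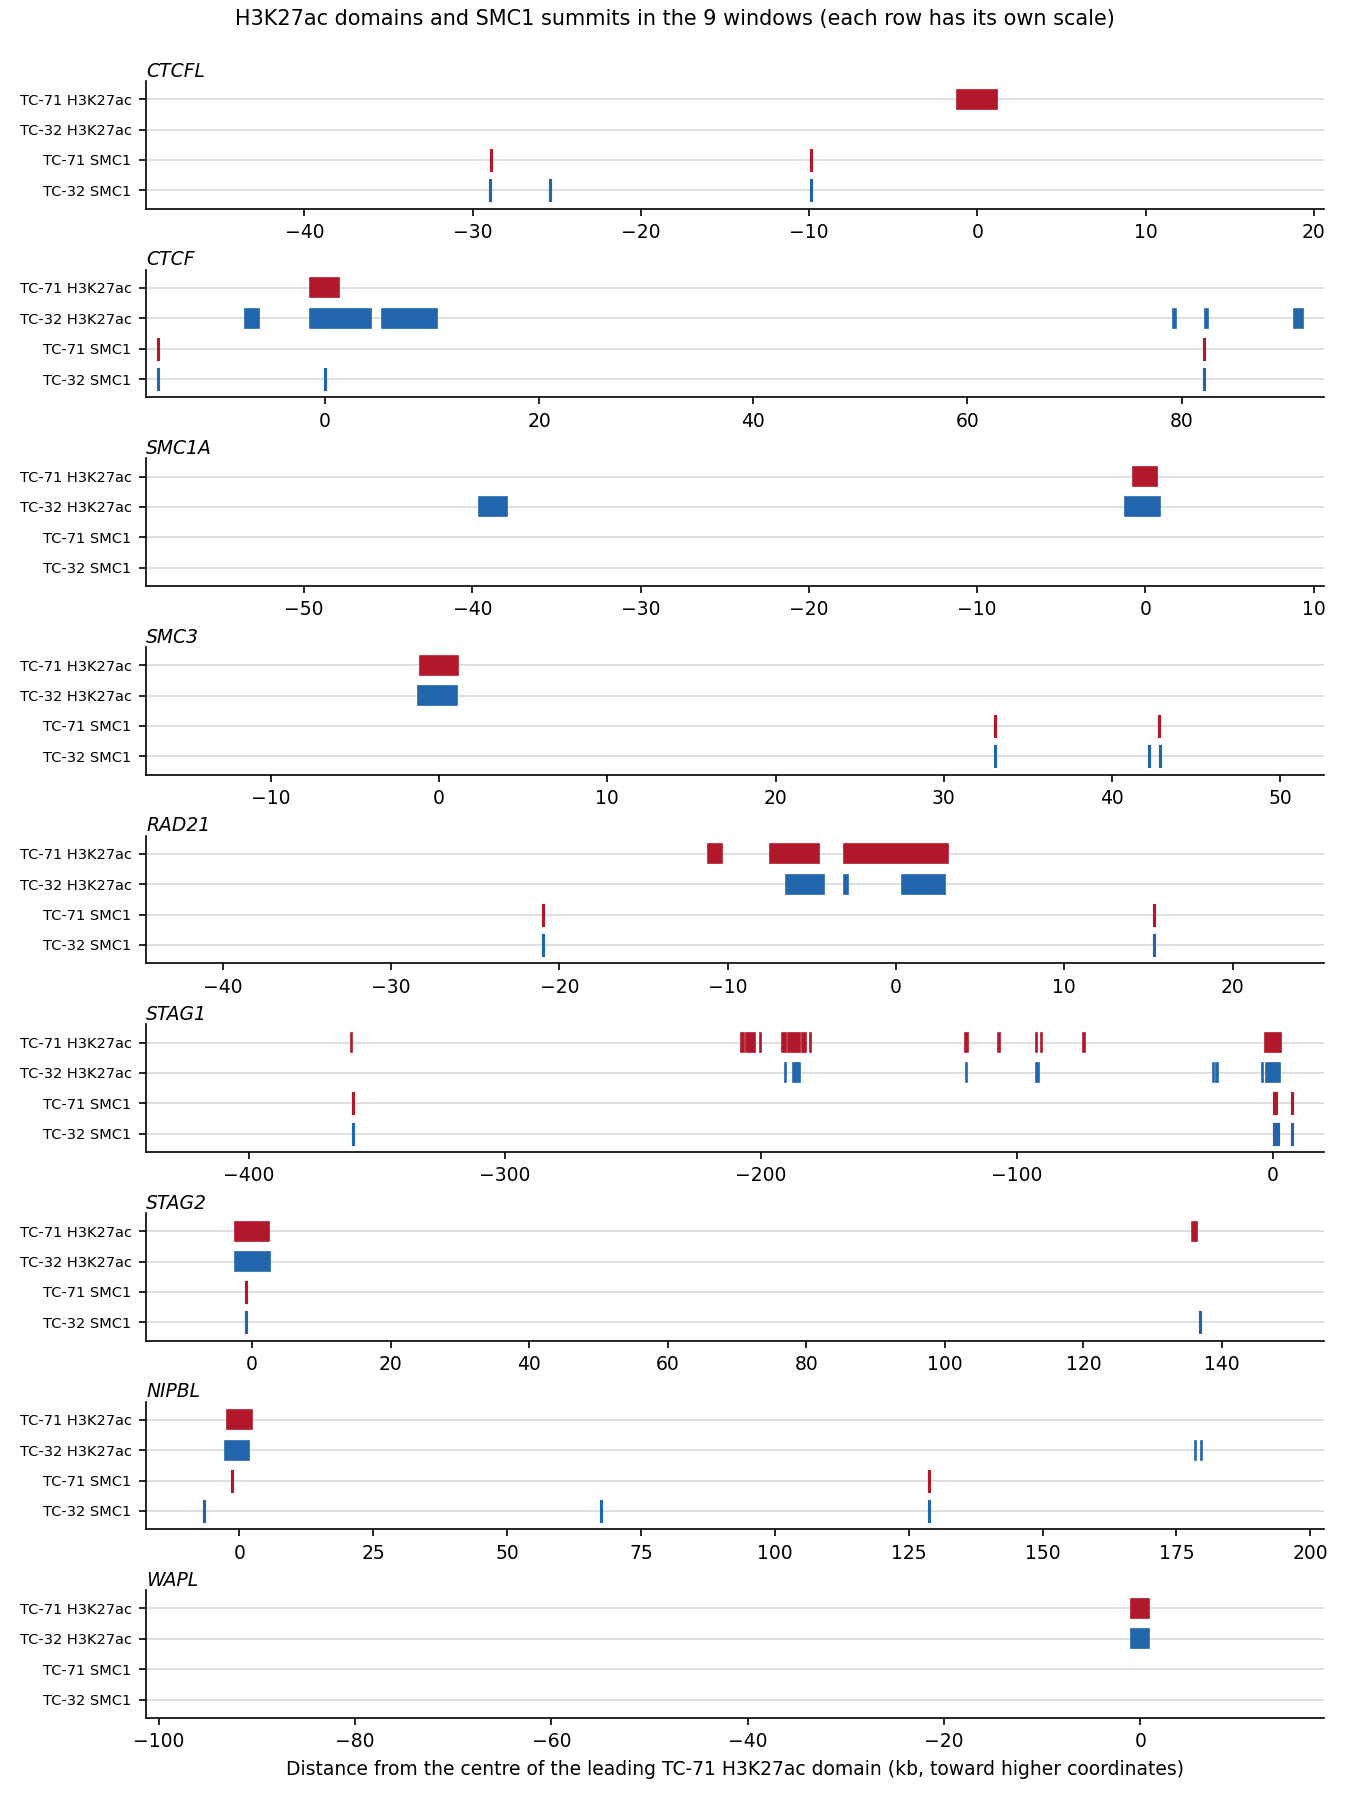
H3K27ac domains (blocks) and SMC1 summits (vertical ticks) in the 9 windows, against distance in kb from the centre of the leading TC-71 domain, each gene on its own scale; no BORIS peak (0) fell in a window. Leading domains coincide between lines in 8 genes, the RAD21 domains sit between 2 shared SMC1 summits, and STAG1 shows the scattered interior domains, 13 in TC-71 and 7 in TC-32.

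STAG2, the paralog of STAG1 on chromosome X, had 1 broad domain in both lines. It spanned 4818 bp in TC-71 (123092871 to 123097688; fold 11.2, percentile 97.7) and 5006 bp in TC-32 (123092863 to 123097868; fold 11.6, percentile 98.8), with all of the TC-71 domain inside that of TC-32. An SMC1 peak inside it was listed in TC-71 (123094066 to 123094447; fold 7.37, percentile 61.6) and in TC-32 (123094276 to 123094447; fold 6.04, percentile 29.6). Near the far end of the window TC-71 alone had a domain of 743 bp (percentile 33.9) and TC-32 alone an SMC1 peak (percentile 8.12). Acetylation of both STAG paralogs was therefore listed in each line.

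The loader gene NIPBL and the release factor gene WAPL had leading domains of lower rank than the ring subunit genes. At NIPBL the domain was 4756 bp in TC-71 (chromosome 5, 36875040 to 36879795; fold 6.70, percentile 89.1) and 4635 bp in TC-32 (36874632 to 36879266; fold 7.30, percentile 91.7). At WAPL it was 1878 bp in TC-71 (chromosome 10, 88280334 to 88282211; fold 7.18, percentile 89.2) and 1885 bp in TC-32 (88280290 to 88282174; fold 5.82, percentile 90.01). TC-32 alone had a pair of short NIPBL domains, of 287 and 240 bp (37055835 to 37056121 and 37057054 to 37057293; percentiles 50.2 and 56.2), 176040 bp or more from any TC-71 domain.

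SMC1 was listed at NIPBL and not at WAPL. NIPBL had 2 SMC1 peaks in TC-71 and 3 in TC-32, or 0.909 and 1.36 per 100 kb, beside 0.870 and 1.09 at STAG1, and 1 was shared, at a percentile of 8.03 in TC-71 (37006197 to 37006333) and 45.2 in TC-32 (37006080 to 37006364). The leading TC-71 NIPBL peak (36876034 to 36876166, percentile 14.7) lay in the acetylated domain and was 5195 bp from any TC-32 peak. The WAPL window had 0 in both lines, and the nearest was 20.1 kb outside the window in TC-71 and 19.9 kb in TC-32. Among stretches of the WAPL window's length (120 kb) with H3K27ac in both lines, 13.4% had no SMC1 peak in either line, and among those of the SMC1A window's length (70 kb) 26.0%.

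Over all windows, SMC1 peaks were shared between the lines at rates within counting error of those of the whole lists. Of the TC-71 SMC1 peaks 13 of 15 (86.7%, interval 59.5 to 98.3%) overlapped a TC-32 peak, beside 90.3% of the whole TC-71 list. Of the TC-32 peaks 13 of 21 (61.9%, 38.4 to 81.9%) overlapped a TC-71 peak, beside 50.3%. At the 13 shared sites the summits were a median of 12 bp and at most 31 bp apart, a distance that the required overlap of narrow peaks itself keeps short. In 12 of the 13 the TC-32 peak was the wider, STAG2 being the exception; over the whole lists the median SMC1 peak was 186 bp wide in TC-71 and 236 bp wide in TC-32. Of the SMC1 peaks, 4 of 15 in TC-71 were in the highest 10% of their list and 2 of 21 in TC-32.

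H3K27ac domains were shared in 13 of 25 cases in TC-71 (52%, 31.3 to 72.2%) and 14 of 25 in TC-32 (56%, 34.9 to 75.6%), beside 67.3% and 47.1% of the whole lists. At a −log10 q of 5 or more the TC-71 share in the windows was 90% (9 of 10). The share of the whole list at this limit was not computed, so the 90% cannot be set against the 67.3%. Strong TC-71 domains were mostly shared: of the 5211 with a −log10 q of at least 16.8, 1.57% had no TC-32 domain. SMC1 peaks lay in an H3K27ac domain of the same line in 4 of 15 cases in TC-71 (26.7%, 7.79 to 55.1%) and 6 of 21 in TC-32 (28.6%, 11.3 to 52.2%), beside 13.6% and 25.9%. With lists of equal length the TC-32 share in the windows was 8.33% (1 of 12). That of the whole shortened list was not computed, so the 8.33% cannot be set against the 25.9%. In the full lists the 4 TC-71 peaks were at STAG1, STAG2 and NIPBL, and the 6 TC-32 peaks at CTCF, STAG1 and STAG2. In the other direction 3 of 25 TC-71 domains held an SMC1 peak (12%, 2.55 to 31.2%) and 4 of 25 TC-32 domains (16%, 4.54 to 36.1%), beside 8.84% and 19.1%. Each of these intervals, for SMC1 sharing too, contained the value of its whole list. The intervals are wide and treat neighbouring peaks as independent, although 14 of the 25 TC-71 domains lay at STAG1.

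BORIS itself was not listed at its own gene or at any of the other 8 windows, in either line. Absence from a single window is common at this list length, since 1.66% of 100-kb stretches of the genome held BORIS in TC-71, against 0.0198% in TC-32. For 70 kb, the shortest window length, the shares were 1.18% in TC-71 and 0.0138% in TC-32. For 460 kb, the longest, they were 6.91% and 0.0911%. The share for the 9 windows together was not computed. The nearest TC-71 BORIS peak was 60.7 kb from the STAG1 window, 171 kb from WAPL and 360.5 kb from CTCF. For the other 6 genes it was between 2977 kb (RAD21) and 6385 kb (SMC1A) away. TC-32 had no BORIS peak (0) on any of these chromosomes.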

How the data were processed

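Peak lists were analysed for BORIS, SMC1 and H3K27ac in TC-71 and TC-32. The submitters' processing notes name MACS2 2.1.1, STAR 2.5.1b, deepTools 2.2.4, Picard and SAMtools 1.3.1, and hg19; their settings and the pooling of replicates are not stated there. For each peak the authors deposited a score (10 times the −log10 q without its decimals, not used further), the −log10 p, the −log10 q and a fold enrichment over input, and these values rank and describe peaks of 1 list. Intervals on chromosomes 1 to 22 and X were kept, and those with several summits counted once, with the summit of highest −log10 q. Starts are counted from 1. Overlap meant at least 1 bp. The members and lists were chosen with earlier results of these data known. Named peaks were the leading and widest domain and the leading SMC1 peak of each gene and line, those in the highest 10% of a list, and line-specific ones above the list median; other named peaks were chosen after their values were seen. Stretches of fixed length were laid end to end over each chromosome. A planned look at further cohesin genes was not run, since no hg19 annotation was used. Tried as alternatives were windows changed by 10 kb at each end, peaks with a −log10 q of 5 or more, lists of equal length, merging within 1 kb, 50% of a peak covered and a margin of 500 bp. The tools were scipy 1.17.1, pandas 2.3.3, matplotlib 3.10.9, numpy 2.4.6 and Python 3.11.15; the overlap code, tested on 400 simulated sites, made 0 errors.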

Additional observations from a re-analysis of the deposited data

How the results depend on the processing

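No paired analysis was possible because both replicates of a line and antibody share 1 list, and neither could be left out. Of 66 alternative values over all windows, 56 stayed within 1.5 times the main count or inside the interval of the share reported. Part of these could not have moved. Equal length keeps the shorter TC-71 SMC1 and H3K27ac lists whole, and a count of 0 BORIS peaks cannot fall under a stricter setting. With a −log10 q of at least 5, H3K27ac domains numbered 10 in TC-71 and 13 in TC-32, 90% of the TC-71 domains were shared, and the covered sequence of TC-71 minus TC-32 reversed to -2.72 kb, against 5.96 kb. This difference was 2.25 kb with windows widened by 10 kb and 14.2 kb with lists of equal length. Equal length also gave 14 H3K27ac domains and 12 SMC1 peaks in TC-32, with 91.7% of these peaks shared and 8.33% in an H3K27ac domain. A higher limit on q and equal length leave fewer peaks by construction, and shares of the whole lists under these settings were not computed. Of 252 values for single genes 225 stayed within 1.5 times or at 0. These again include TC-71 values that equal length leaves unchanged. They also include counts of 0, as for SMC1 at WAPL, which cannot fall under a stricter setting. The depth per sample is unknown, which limits every absence stated here.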
